A study of Sus scrofa with 5 samples.

Results

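The Notch pathway genes described here were 4 receptors (NOTCH1, NOTCH2, NOTCH3 and NOTCH4), 3 ligands (JAG1, JAG2 and DLL4) and 3 target genes (HES1, HEY1 and HEYL), chosen by gene symbol. These 10 genes were each found once among the 30822 genes listed for the pig genome build Sscrofa11.1. RNA was sequenced from ovarian follicles of female pigs of the Indian Ghoongroo breed, with 3 libraries from large follicles and 2 from small follicles, and the study asks which genes differ between the 2 sizes. The labels call the replicates biological and name no treatment other than follicle size. The sources used here do not give the follicle diameters, the number of follicles in a library, the ages of the animals or whether each library had an animal of its own. The p-values therefore describe the spread among these 5 libraries, which may be technical.

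Notch signalling passes between touching cells. A ligand of the Jagged or Delta-like family on one cell binds a Notch receptor on its neighbour, the receptor is cut, and its intracellular domain enters the nucleus, where it joins the DNA-binding protein RBPJ and switches on repressor genes of the HES and HEY families. In the mouse ovary JAG1 and NOTCH2 are known for contact between germ cells and granulosa cells, while in mammalian vessels DLL4, NOTCH1 and NOTCH4 are known from endothelium and NOTCH3 and HEYL from the mural cells around it.

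Library totals, worked back from the steps of the deposited FPKM values (fragments scaled by gene length and by library total), ranged from 9523739 to 11507527 fragments. Large follicle replicate 2 and small follicle replicate 1 had the lowest median level over genes within their groups and the highest share of fragments from mitochondrial genes, at 6.36% and 8.53% against 3.10% to 4.22% in the other 3 libraries. Markers of the labelled tissue were present in every library. The granulosa marker INHA (inhibin alpha) had at least 4474 FPKM in large follicles and at least 2876 FPKM in small follicles, and the theca marker INSL3, a peptide hormone, had at least 646 FPKM in large follicles and at least 446 FPKM in small follicles. In bulk follicles, fewer cells of a type and less RNA per cell cannot be told apart.

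All 10 Notch genes were expressed in every library, and none differed between large and small follicles at an adjusted p under 0.05. The receptor NOTCH3 and the targets HEYL and HEY1 had lower levels in every large follicle library than in either small follicle library. DLL4, HES1 and NOTCH2 had higher mean levels in large follicles, with values that overlapped between the groups. By limma on log2(FPKM + 1), with Benjamini-Hochberg adjustment over the 13087 genes that reached an FPKM of 1 in at least 2 libraries, 0 of the 10 were called, where 0.978% of all genes tested were. At an unadjusted p under 0.05 there was 1 of 10, NOTCH3, against 10.4% of all genes tested in either direction and 5.67% in its own, lower in large follicles. By limma voom on the recovered fragments 0 of 10 were called, and 1.41% of all genes. By voom the member of smallest p was NOTCH1, not NOTCH3. Each difference below subtracts small from large on that log scale, where the added 1 shrinks the change of genes with low FPKM. Of the 10 differences 3 were above 0 and 7 below 0, with a median of -0.27, beside a median of -0.08 over all genes tested, of which 5223 were above 0 and 7864 below. The values of 4 members did not overlap between the groups, all of them lower in large follicles, while 26.1% of all genes tested did not overlap in either direction and 15.2% were lower in large follicles without overlap.

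NOTCH3 (gene 102158881, chromosome 2, 62364507 to 62402348, plus strand), the receptor known from vascular mural cells, had 9.41, 12.6 and 12.9 FPKM in the large follicle libraries, against 17.7 and 17.2 FPKM in the small ones. The highest large follicle value lay below the lowest small follicle value. Its mean was 11.6 ± 1.93 FPKM in large follicles (SD, n = 3) and 17.5 ± 0.374 FPKM in small follicles (SD, n = 2), a log2 difference of -0.56 with an SE of 0.24, a limma adjusted p of 0.4555 and an unadjusted limma p of 0.0432. The values rest on 876 to 1399 fragments per library, so counting error was between 2.67% and 3.38%, far below the gap between the groups.

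NOTCH1 (gene 110258061, on an unplaced scaffold, 1209291 to 1252848, plus strand), a receptor of endothelium and many other cells, had 2.89, 2.18 and 3.20 FPKM in large follicles, against 3.21 and 6.35 FPKM in small follicles. The groups did not overlap, but large follicle replicate 3 and small follicle replicate 1 differed by less than their counting errors of 5.61% and 5.87%. The log2 difference was -0.57 with an SE of 0.33 (limma adjusted p = 0.634), and small follicle replicate 2 stood well above the other 4 libraries. Without that library the difference was -0.17, and without small follicle replicate 1 it was -0.98.

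NOTCH2 (gene 100153369, chromosome 4, 100951522 to 101152348, plus strand), the receptor known from mouse granulosa cells, was the most abundant of the 4 receptors in every large follicle library. It had 15.1, 13.7 and 23.3 FPKM in large follicles, against 13.7 and 16.4 FPKM in small follicles, so that large follicle replicate 3 stood above libraries that were otherwise close. Its log2 difference was 0.16 with an SE of 0.27 (95% interval -0.45 to 0.78, limma adjusted p = 0.906). Leaving out large follicle replicate 3 turned the difference to -0.055. NOTCH4 (gene 100144522, chromosome 7, 24231293 to 24256281, minus strand), a receptor best known from endothelium, had 4.70, 4.09 and 5.51 FPKM in large follicles, against 3.50 and 6.48 FPKM in small follicles. The small follicle values lay on both sides of all the large ones, and the log2 difference was -0.02 with a 95% interval from -0.73 to 0.69 (limma adjusted p = 0.995). Leaving out small follicle replicate 1 gave -0.38, leaving out small follicle replicate 2 gave 0.35, and leaving out large follicle replicate 2 gave 0.069. On the opposite strand a long noncoding RNA gene with at most 0.440 FPKM overlaps NOTCH4, and loci listed at 0 in every library overlap NOTCH2 and NOTCH3.

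As a share of the summed FPKM of the 4 receptors, NOTCH2 made up 47.0% ± 4.84 in large follicles (SD, n = 3) and 35.6% ± 0.461 in small follicles (SD, n = 2). The NOTCH2 share did not overlap between the groups, while that of NOTCH3 did, at 32.2% ± 5.51 in large follicles and 41.8% ± 6.65 in small follicles. The sum itself overlapped between the groups, at 32.1 to 44.9 FPKM in large follicles and 38.2 to 46.4 FPKM in small follicles. NOTCH2 was above NOTCH3 in all 3 large follicle libraries and below it in both small follicle libraries.

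The ligand DLL4 (gene 100152163, chromosome 1, 130376720 to 130386411, minus strand), known for its role in sprouting vessels, had 16.4, 17.8 and 21.2 FPKM in large follicles, against 10.04 and 19.2 FPKM in small follicles. Small follicle replicate 1 was the lowest of the 5, and replicate 2 lay inside the range of the large follicles. The log2 difference of 0.37 (SE 0.29, limma adjusted p = 0.760) became -0.064 when small follicle replicate 1 was left out and 0.81 when replicate 2 was. JAG1 (gene 100156773, chromosome 17, 19591248 to 19629659, minus strand), the Jagged ligand known from mouse oocytes, had 9.39, 8.66 and 13.6 FPKM in large follicles, against 10.2 and 18.7 FPKM in small follicles. Its highest value was in small follicle replicate 2, with small follicle replicate 1 between the large follicle libraries. The log2 difference was -0.39 with an SE of 0.31 (limma adjusted p = 0.774), and 0.020 without small follicle replicate 2.

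JAG2 (gene 100522743, on an unplaced scaffold, 3262238 to 3284495, minus strand), the other Jagged ligand, was the least abundant of the 3 ligands in every library. It had 5.11, 3.00 and 3.83 FPKM in large follicles, against 3.97 and 5.41 FPKM in small follicles, from 120 to 235 fragments per library. The groups overlapped, with a log2 difference of -0.20 (SE 0.31, 95% interval -0.89 to 0.49, limma adjusted p = 0.897). Within the summed ligand FPKM, DLL4 made up 56.1% ± 3.82 in large follicles (SD, n = 3) and 42.9% ± 2.09 in small follicles (SD, n = 2), and JAG1 31.7% ± 3.13 in large follicles and 42.6% ± 0.661 in small follicles. Neither share overlapped between the groups, but the 2 shares are tied to each other through their sum.

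The target HES1 (gene 100499567, chromosome 13, 131135970 to 131137865, plus strand), a transcriptional repressor, had 15.9, 10.3 and 13.4 FPKM in large follicles, against 8.48 and 12.2 FPKM in small follicles. Large follicle replicate 2 lay between the small follicle libraries, so the groups overlapped. The log2 difference was 0.32 with an SE of 0.28 (limma adjusted p = 0.791), and 0.14 with the length trend removed. Its listed exon length is only 854 bases, and 69 to 156 fragments per library gave counting errors of 8.01% to 12.04%.

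HEYL (gene 100518256, chromosome 6, 95442655 to 95459597, minus strand), a repressor known from vascular smooth muscle, had 14.7, 15.7 and 19.8 FPKM in large follicles, against 20.6 and 22.2 FPKM in small follicles. The groups did not overlap, although large follicle replicate 3 and small follicle replicate 1 were within 1 FPKM of each other. Its log2 difference was -0.34 with an SE of 0.23 (95% interval -0.86 to 0.17, limma adjusted p = 0.702). HEY1 (gene 100157952, chromosome 4, 56859640 to 56863807, plus strand), a repressor of the same family known from endothelium, was the lowest of the 10, with 1.495, 0.822 and 1.495 FPKM in large follicles, against 1.85 and 2.06 FPKM in small follicles. These values came from 44, 21 and 40 fragments in large follicles and 45 and 53 in small follicles, with counting errors of 13.7% to 21.8%. The log2 difference was -0.39 with an SE of 0.27 (limma adjusted p = 0.716), and the gap between the nearest libraries of the groups was within counting error. Of the summed FPKM of the 3 targets, HES1 made up 42.2% ± 6.31 in large follicles (SD, n = 3) and 30.5% ± 4.36 in small follicles (SD, n = 2), and HEYL 53.8% ± 6.91 in large follicles and 63.7% ± 4.13 in small follicles. Neither of these shares overlapped between the groups, while the sum did. These 2 shares are likewise tied to each other.

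**Figure D1:**
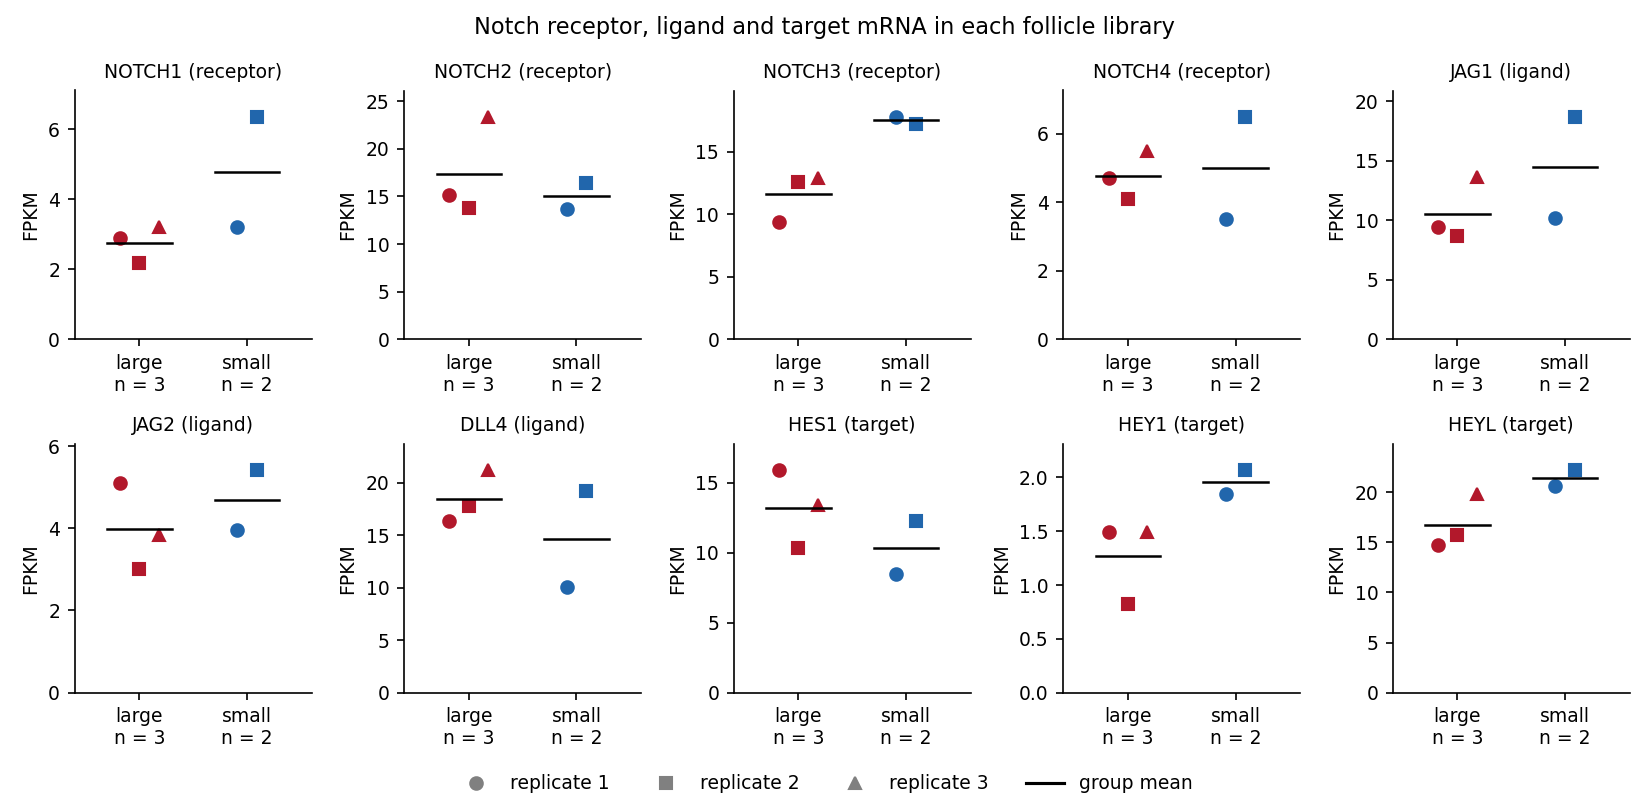
FPKM (vertical axes, each from 0) of the 10 Notch genes in the 3 large follicle libraries (red, left) and the 2 small follicle libraries (blue, right), with symbols for the replicates and a line at the group mean. NOTCH3, HEYL, HEY1 and NOTCH1 have all large follicle points below both small follicle points, the last by 3.20 against 3.21 FPKM.

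FPKM is scaled by gene length, so levels of different genes can be compared, but only roughly. Long and short genes varied differently across the libraries, and the recovered length of JAG2 was 3997 bases against 4621 listed. By mean FPKM, the order in large follicles was DLL4 (18.5 ± 2.46, SD, n = 3), NOTCH2 (17.4 ± 5.18), HEYL (16.8 ± 2.70), HES1 (13.2 ± 2.79), NOTCH3 (11.6 ± 1.93), JAG1 (10.6 ± 2.68), NOTCH4 (4.76 ± 0.715), JAG2 (3.98 ± 1.06), NOTCH1 (2.76 ± 0.522) and HEY1 (1.27 ± 0.389). The only neighbours in that order whose ranges did not overlap were JAG1 with NOTCH4 and NOTCH1 with HEY1. In small follicles HEYL came first at 21.4 ± 1.10 FPKM (SD, n = 2), followed by NOTCH3, NOTCH2, DLL4, JAG1, HES1, NOTCH4, NOTCH1, JAG2 and HEY1. There HEYL and NOTCH3, NOTCH3 and NOTCH2, HES1 and NOTCH4, and JAG2 and HEY1 were the neighbours without overlap. In both groups NOTCH1, NOTCH4, JAG2 and HEY1 formed the lower part of the order.

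Differences between libraries of the same size were as large as those between sizes for most of these genes. For 7 of the 10 members, the 2 small follicle libraries differed by more than the group means did, which was also so for 64.9% of all genes tested. Small follicle replicate 2 was above replicate 1 for 9 of 10 members, NOTCH3 being the exception, and for 79.6% of all genes tested. Large follicle replicate 3 was above replicate 2 for 10 of 10 members and for 76.0% of all genes tested. With each gene centred on its mean over the 5 libraries, the median of the members was -0.05, -0.22 and 0.14 in large follicles, against -0.12 and 0.30 in small ones. Over all genes tested the same medians were 0.01, -0.22 and 0.12 in large follicles, against -0.12 and 0.22 in small ones. Members and all genes thus had their lowest medians in large follicle replicate 2 and their highest in small follicle replicate 2.

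**Figure D2:**
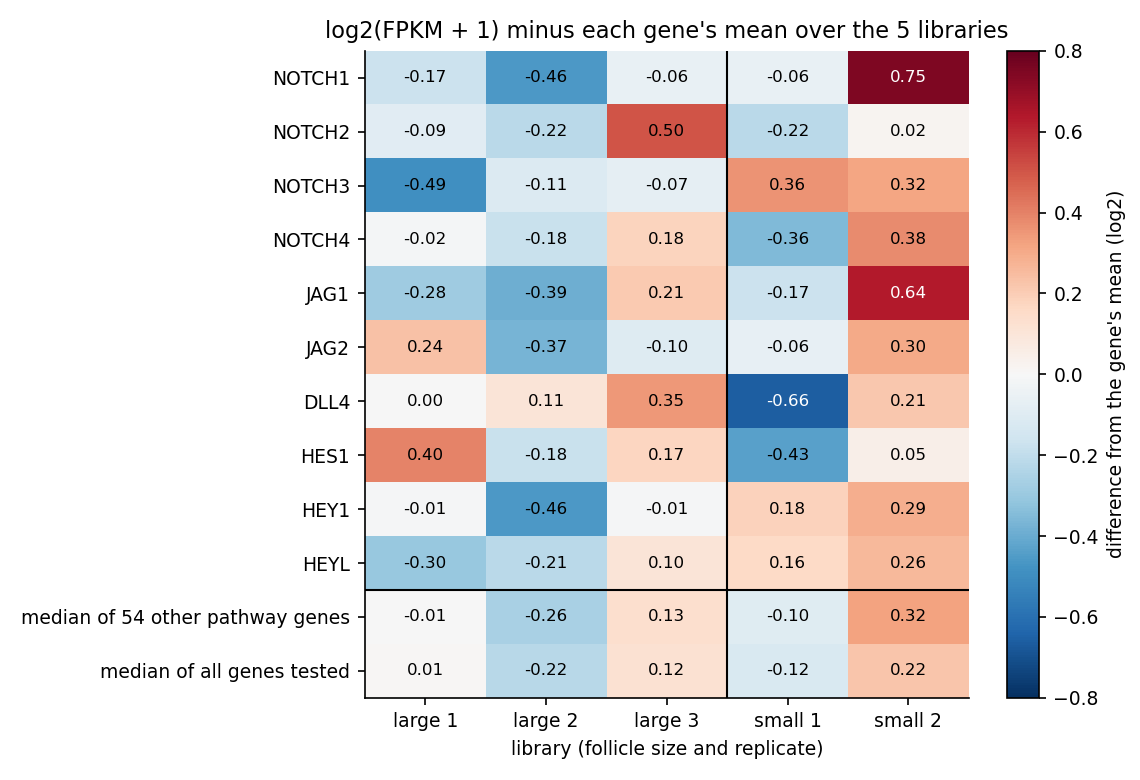
Heat map of log2(FPKM + 1) minus each gene's mean over the 5 libraries (colour and printed value), for the 10 members (rows) in 3 large (left) and 2 small follicle libraries (right), with medians of other pathway genes and of all genes tested below. Small follicle replicate 2 is above 0 for all 10 members, as in the medians. Large follicle replicate 2 is below 0 for 9 of them, again as in the medians. NOTCH3 and HEY1 are below 0 in all large and above 0 in both small follicle libraries. HEY1 is only at -0.01 in large follicle replicates 1 and 3.

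A ratio of 2 members within a library does not depend on how the library was scaled. Of the 45 ratios among the members, 22 did not overlap between large and small follicles, or 48.9%, where 32.3% of all 83443821 pairs of tested genes above 0 in every library did not overlap. The 45 ratios share 10 genes and are not independent, and the ratios named next were chosen for their gaps, so no test was made. HES1 was part of 7 of the 22 ratios and DLL4 of 6, while JAG2 was part of 1. Long and short genes varied differently across the libraries: the median centred level of the 3975 longest genes tested was -0.09, -0.30 and 0.17 in large follicles, against -0.12 and 0.34 in small ones. With a length trend removed from each library, the difference of the long gene NOTCH1 was -0.39 in place of -0.57 and that of the short gene HES1 was 0.14 in place of 0.32, so these members lay closer together. The ratios below are not corrected for length.

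The widest gap was that of NOTCH1 to DLL4, at 0.176, 0.123 and 0.151 in large follicles, against 0.319 and 0.330 in small follicles. The receptor was thus less abundant relative to this ligand in each large follicle library. NOTCH1 to HES1 gave 0.182, 0.212 and 0.238 in large follicles, against 0.378 and 0.518 in small follicles. HES1 to HEY1 gave 10.6, 12.5 and 8.98 in large follicles, against 4.59 and 5.93 in small follicles, a ratio that carries the counting error of HEY1. Between the main ligands, JAG1 to DLL4 was 0.573, 0.487 and 0.643 in large follicles, against 1.02 and 0.970 in small follicles. Both ligands were thus about equal in small follicles, with DLL4 above JAG1 in all 3 large follicle libraries. The 2 receptors best known from endothelium, NOTCH1 to NOTCH4, stood at 0.615, 0.534 and 0.581 in large follicles, against 0.915 and 0.979 in small follicles.

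**Figure D3:**
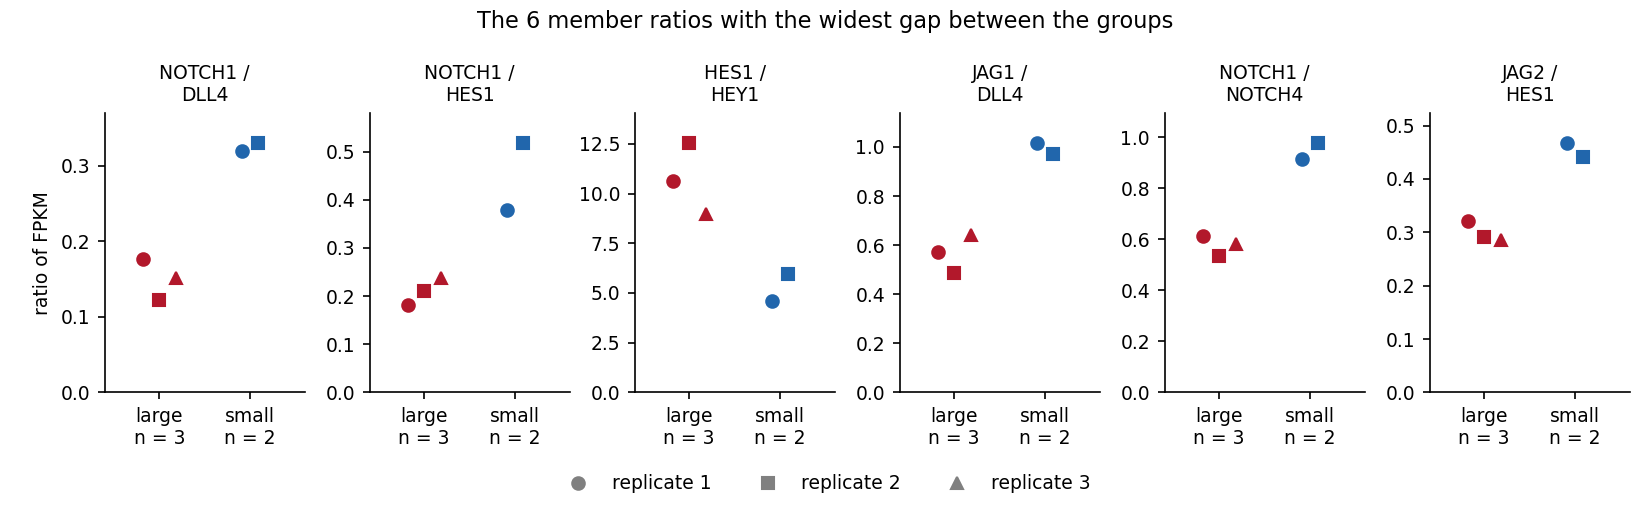
Ratio of FPKM of 2 members within each library (vertical axes, each from 0) for the 6 ratios with the widest gap, in 3 large (red, left) and 2 small follicle libraries (blue, right), with symbols for the replicates. In 5 of the 6 ratios the large follicle points are the lower ones, and in HES1 to HEY1 they are the higher ones.

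Among the other genes of the pathway, 60 of 61 listed symbols were found and 54 passed the filter on low values. Limma called 0 of these 54, as did voom, and 5 of them (9.26%) had an unadjusted limma p under 0.05, against 10.4% of all genes tested. Of their differences 20 were above 0 and 34 (63.0%) below, against 60.1% below over all genes, with a median of -0.12 against -0.08. The groups did not overlap for 15 (27.8%), against 26.1% of all genes, so each of these shares was near that of all genes. By role, 8 of 8 tested genes of the nuclear complex that RBPJ forms and 10 of 11 corepressors had differences below 0 (medians -0.41 and -0.23). The other lists had genes on both sides, with 6 of 12 trafficking genes, 4 of 9 for receptor cleavage, 2 of 6 for glycosylation, 2 of 3 other ligands and 2 of 5 other targets below 0. These differences by role are not corrected for gene length, although long and short genes varied differently across the libraries, as given above. The part of length in them was not tested.

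RBPJ itself, the DNA-binding partner of the cut receptor, had 4.65, 0.945 and 5.46 FPKM in large follicles, against 2.42 and 4.99 FPKM in small follicles. Its low values were in the 2 libraries with high mitochondrial shares, large follicle replicate 2 and small follicle replicate 1, and the groups overlapped. MAML1, a coactivator that docks on the complex, had 0.339, 1.15 and 1.63 FPKM in large follicles, against 1.97 and 3.27 FPKM in small follicles (log2 difference -0.86, SE 0.34, limma adjusted p = 0.409). These values rest on few fragments, 22, 65 and 96 in large follicles and 106 and 185 in small follicles. EP300, an acetyltransferase recruited by it, had a log2 difference of -0.59 (limma adjusted p = 0.570). The corepressor CTBP1, which acts with RBPJ in the absence of signal, differed by -0.49 on the log2 scale (limma adjusted p = 0.450), without overlap between the groups.

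The 9 genes for cutting the receptor, all tested, had differences from -1.11 to 0.25 with a median of 0.00. ADAM10, which sheds the receptor's outer part, had 0.967, 2.54 and 5.23 FPKM in large follicles, against 3.60 and 11.6 FPKM in small follicles, and PSENEN, a subunit of gamma-secretase, had 54.5 ± 8.94 FPKM in large follicles (SD, n = 3) and 45.3 ± 0.693 FPKM in small follicles (SD, n = 2). ADAM10 varied widely within each size, and its log2 difference was -1.11 with an SE of 0.53 (limma adjusted p = 0.529). Of the glycosyltransferases that tune ligand choice, MFNG had 13.0, 11.2 and 11.7 FPKM in large follicles, against 6.94 and 9.10 FPKM in small follicles (log2 difference 0.53, SE 0.25, limma adjusted p = 0.514), and EOGT had a log2 difference of -0.45 (limma adjusted p = 0.741).

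The smallest p of the whole set belonged to DTX4, a Deltex ubiquitin ligase, with 9.44, 11.7 and 10.4 FPKM in large follicles, against 5.60 and 5.88 FPKM in small follicles. All large follicle values were higher, with a log2 difference of 0.77, an SE of 0.25 and a limma adjusted p of 0.280. NUMBL, a relative of the Notch inhibitor NUMB, lay the other way, at 14.1, 11.3 and 14.6 FPKM in large follicles, against 20.2 and 20.9 FPKM in small follicles (log2 difference -0.59, SE 0.23, limma adjusted p = 0.381). Among further ligands, DNER and DLL1 differed by -0.43 (limma adjusted p = 0.684) and 0.36 (limma adjusted p = 0.739). HEY2, the third HEY repressor, had 7.12, 8.50 and 15.1 FPKM in large follicles, against 12.4 and 20.7 FPKM in small follicles, with a log2 difference of -0.67, an SE of 0.35 and a limma adjusted p of 0.577. It was more abundant than HEY1 in every library, and HES2 had a log2 difference of -0.19 (limma adjusted p = 0.910). HES5 and HES7, further targets, stayed under the filter with at most 0.277 FPKM in any library.

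**Figure D4:**
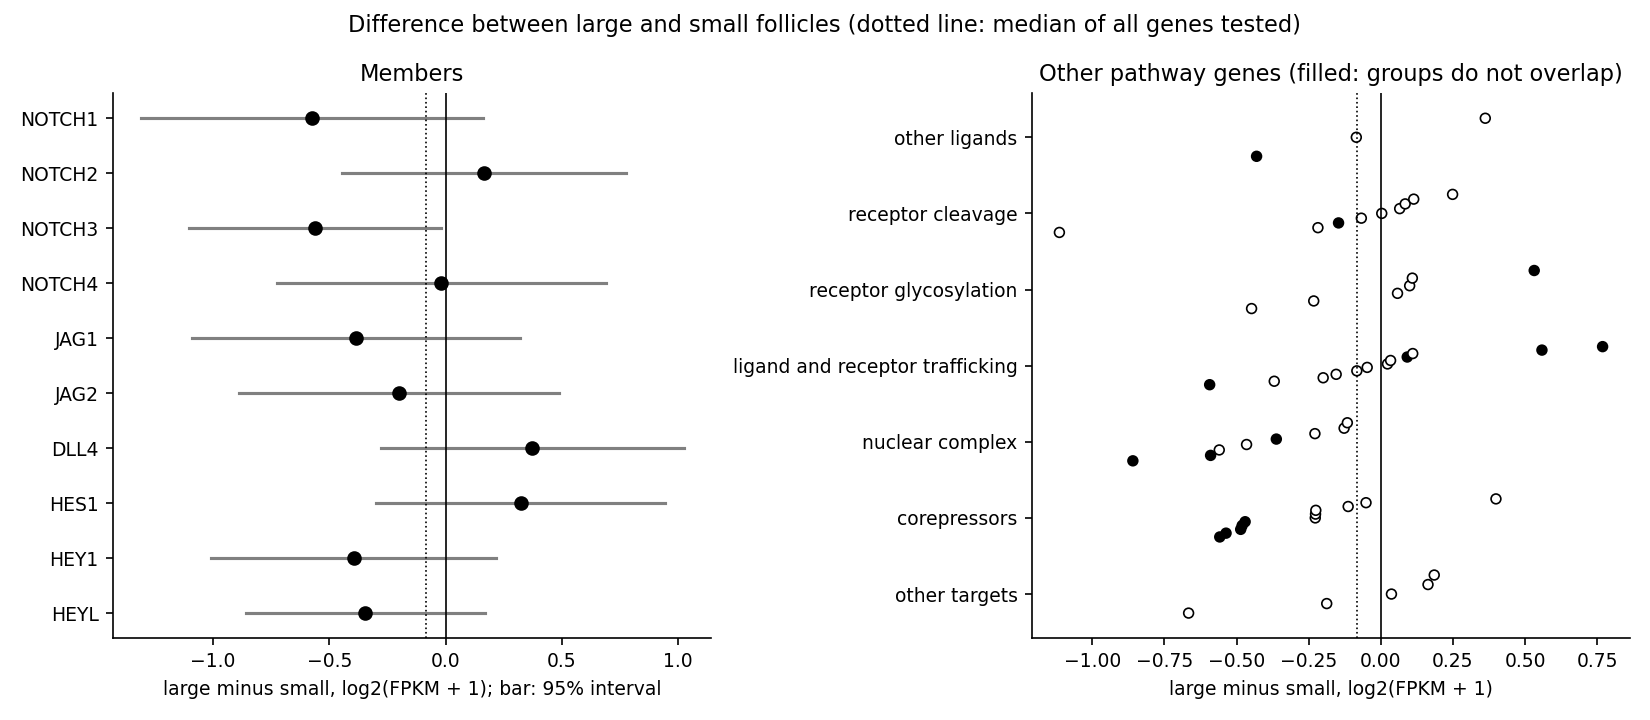
Left, log2(FPKM + 1) of large minus small follicles for the 10 members, with 95% intervals from limma. Right, the same difference for 54 other pathway genes by role, filled where the groups do not overlap; the dotted line is the median of all genes tested, -0.08. Only the interval of NOTCH3 stays below 0, and all 8 genes of the nuclear complex lie left of 0. The differences are not corrected for gene length.

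Markers of vessels, whose cells are known to express several members, had higher summed levels in every large follicle library, while single markers lay on both sides of 0. The median centred level of each of these lists overlapped between the groups. For endothelial markers it was 0.12, 0.03 and 0.12 in large follicles, against -0.20 and 0.07 in small follicles. For mural markers it was -0.02, -0.07 and 0.06 in large follicles, against -0.21 and 0.11 in small follicles. Of 12 endothelial markers, 9 had differences above 0 and 3 below (median 0.14), none was called by limma, and their summed level was 331 to 354 FPKM in large follicles and 295 to 312 FPKM in small follicles. PECAM1, an adhesion molecule, had a log2 difference of 0.58 (SE 0.20, limma adjusted p = 0.309). Of 9 tested mural markers, 5 had differences above 0 and 4 below (median 0.25), and the sum over the list was 3681 to 4393 FPKM in large follicles and 3071 to 3133 FPKM in small follicles, mostly ACTA2 and TAGLN. MYH11, a smooth muscle myosin and the mural marker of smallest p, had 100.4, 165.7 and 171.9 FPKM in large follicles, against 246.7 and 239.3 FPKM in small follicles (log2 difference -0.77, SE 0.26, limma adjusted p = 0.309). It was lower in large follicles, as NOTCH3 was. ACTA2 and TAGLN went the other way without overlap, with log2 differences of 0.40 and 0.50 (limma adjusted p = 0.742 and 0.611). The pericyte receptor PDGFRB had a log2 difference of -0.02. RGS5, another mural marker, had one of -0.81 (SE 0.33, limma adjusted p = 0.426), with values that overlapped between the groups. None of the markers of any list here was at 0 in every library. The part of vessel cells in the values of NOTCH3, HEYL and DLL4 was not tested.

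Among markers of other cell types, 1 theca and 1 myeloid gene were called. The granulosa list summed to 5373 to 13845 FPKM in large follicles and 3927 to 5328 FPKM in small follicles, mostly INHA. Of its 9 tested markers 3 were above 0 and 6 below, and HSD17B1, an estradiol-forming enzyme, differed by -1.29 (SE 0.30, limma adjusted p = 0.0956). The theca list summed to 2027 to 4236 FPKM in large follicles and 916 to 1205 FPKM in small follicles, with 5 of 9 markers above 0. CYP17A1, which makes androgens, rose by 3.07 on the log2 scale in large follicles (SE 0.44, limma adjusted p = 0.0121). Myeloid markers summed to 192 to 269 FPKM in large follicles and 96.2 to 105 FPKM in small follicles, all 8 above 0, and lysozyme (LYZ) rose by 2.74 on the same scale (SE 0.21, limma adjusted p = 0.000551).

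Oocyte markers summed to 49.6 to 70.3 FPKM in large follicles and 30.1 to 41.5 FPKM in small follicles, with 6 of 8 tested above 0 and the egg coat protein ZP4 at 1.37 (SE 0.27, limma adjusted p = 0.0580). Red blood cell markers summed to 1003 to 1675 FPKM in large follicles and 233 to 701 FPKM in small follicles. All 3 tested were above 0, with the haemoglobin chaperone AHSP, which had 2 fragments in each small follicle library, at 1.31 (SE 0.27, limma adjusted p = 0.0627). Lymphocyte markers overlapped between the groups, at 9.003 to 13.2 FPKM in large follicles and 10.1 to 10.7 FPKM in small follicles, with 5 of 6 tested above 0 and CD3E at 0.28 (SE 0.26, limma adjusted p = 0.812). The part of these cell types in the Notch values was not tested.

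NOTCH3 had the smallest limma p of the members on log2(FPKM + 1), though not under every scaling. It was compared with 7547 other tested genes with a mean FPKM of at least 5 and a symbol that does not start with LOC. The genes with the pattern over the 5 libraries nearest to that of NOTCH3 were ZNF282, PML and SUCLG2. Their root-mean-square distances were 0.034, 0.046 and 0.051 on the centred log2(FPKM + 1) scale. The nearest member was HEYL, at 0.156. For HEYL, the member with the highest mean over all libraries, AHNAK and ATMIN were among the nearest, at 0.027 and 0.032. With 5 libraries many patterns are alike: 35 genes lay within 0.1 of NOTCH3 and 171 within 0.1 of HEYL.

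The direction of 6 members, NOTCH1, NOTCH3, JAG2, HES1, HEY1 and HEYL, was the same in every alternative computed, including each library left out, though JAG2 came as close to 0 as -0.02. No alternative called any member. Which member had the smallest p depended on the scaling. It was NOTCH1, not NOTCH3, after median-of-ratios scaling, quantile normalization and voom (limma adjusted p = 0.370, 0.358 and 0.286). With the length trend removed it was DLL4, and 0 members had an unadjusted limma p under 0.05. NOTCH3 ranged from -0.64 to -0.38, HEYL from -0.46 to -0.23, HEY1 from -0.63 to -0.15 and HES1 from 0.08 to 0.56. Removing the length trend moved several members by over 1.5 times, to 0.34 for NOTCH2, -0.21 for JAG1 and -0.04 for JAG2 besides HES1 and NOTCH4. NOTCH2, NOTCH4, JAG1 and DLL4 changed sign in at least 1 of them.

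**Figure D5:**
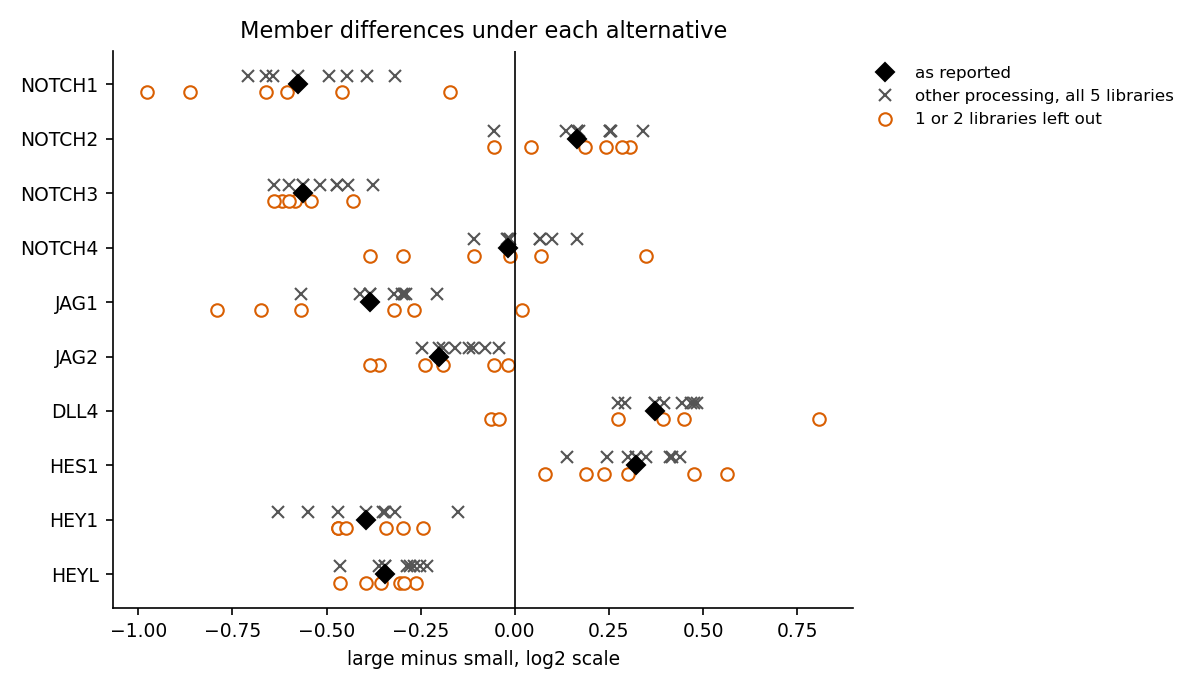
Large minus small difference on the log2 scale (horizontal axis) for the 10 members, as reported (black diamonds), under other processing of all 5 libraries (grey crosses) and with 1 or 2 libraries left out (open orange circles). The points of NOTCH1, NOTCH3, JAG2, HEY1 and HEYL all lie left of 0 and those of HES1 right of it, while the other 4 members have points on both sides.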

How the data were processed

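Groups and replicate numbers came from the sample titles. The authors deposited 1 file per library with FPKM values for 30822 genes. The submitters' processing notes name the counter featureCounts 1.5.0-p3, the assembler StringTie 1.3.3, the aligner HISAT2 2.0.5, the trimmer Trimmomatic 0.38, FastQC 0.11.4 and the build Sscrofa11.1. The order of these steps, the strand setting and the handling of shared fragments were not given in the sources used here. A stranded mRNA kit was used, per the labels' protocols. Gene identifiers matched a RefSeq table of that build for 30335 genes, which gave the chromosomes.

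Library totals and fragments were recovered from the FPKM steps: 49.5% of the 23353 genes above 0 gave whole fragments within 0.001 at the listed length, and the other 11791 at a shorter length found by search. At these depths 3 fragments in 2000 bases equal 0.130 to 0.158 FPKM. Counting errors are the inverse square root of the fragments and cover counting only.

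Genes with an FPKM of at least 1 in at least 2 libraries (13087) were tested on log2(FPKM + 1) with limma 3.58.1 (R 4.3.3). The model held follicle size alone, the variance prior followed the mean level, tests were two-sided, and p-values were adjusted by Benjamini-Hochberg across all genes tested. Named genes were all 10 members, the 2 genes of smallest p in each other pathway list and any called gene. The rule also named the marker of smallest p in each marker list, any called one, and the 3 nearest patterns of 2 members. RBPJ, PDGFRB, RGS5, INHA, INSL3, HES5, HES7, ACTA2 and TAGLN were added after their values were seen. Of the genes this rule names, 2 are not reported here. Members and lists were chosen with earlier results of these data known. Alternatives changed the pseudocount (0.1, 5), the filter (none, or mean FPKM from 5 up), the scaling (quantile, median of ratios) or the model (voom, a replicate block, a length correction), or left libraries out.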

Additional observations from a re-analysis of the deposited data

How the results depend on the processing

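Of 146 recomputed member differences, 135 kept their direction, 11 changed it and 0 became called. The replicate block and leaving out large replicate 3 gave the same member differences, because replicate 3 has no small follicle library. These counts hold those differences under both settings, so the 2 are not separate checks. NOTCH4 was 0.068 after median-of-ratios scaling, 0.10 after quantile normalization, 0.066 by voom, 0.17 after removal of the length trend, and -0.38 to 0.35 with a library left out (0.069 without replicate 2 of the large follicles). NOTCH2 was -0.055 with the replicate number as a block, the same estimate as without large replicate 3. With a library left out it was -0.055 to 0.31. Leaving out a library gave -0.064 to 0.81 for DLL4 and -0.79 to 0.020 for JAG1. DLL4 was -0.042 when large replicate 2 and small replicate 1 were both left out. That alternative and the length correction were chosen after seeing the data. The median of all genes itself moved, to -0.26 without small replicate 1 and 0.09 without small replicate 2.

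Over all genes, limma called 128, against 32 with no filter, 41 at a mean FPKM of at least 5 (where 6 members could be tested), 202 after median-of-ratios scaling, 201 after quantile normalization and 390 without large replicate 2 and small replicate 1, where 1 other pathway gene, ADAM10, was called (-1.84, limma adjusted p = 0.0415). The count was 29, 268 and 222 without large replicates 1, 2 and 3, and 78 and 60 without small replicates 1 and 2. The cause was not tested.

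With the replicate block 157 genes were called, and the smallest limma adjusted p of a member was 0.9997. The labels do not tie the numbers to animals, so the numbers were not taken as pairs. Deviations of same-numbered libraries from their group means correlated at -0.00148 (replicate 1) and -0.449 (replicate 2) across 13087 genes, which are not independent replicates. The deviations of the 2 small follicle libraries mirror each other, so large replicate 2 gave 0.449 with small replicate 1. These correlations therefore cannot show whether same-numbered libraries are paired.

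With 3 against 2 libraries, the 95% interval of every member difference spans more than 1 on the log2 scale. HES1, HEY1 and JAG2 rest on the fewest fragments.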
